A study of Mus musculus with 12 samples.

Results

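The genes described here are the Sprouty genes Spry1, Spry2 and Spry4, the Spred genes Spred1, Spred2 and Spred3, the ETS transcription factor genes Etv4 and Etv5, and the growth factor-induced genes Phlda1 and Ier3. They are 10 of the 24062 rows of the deposited count table and were picked by name, with earlier results of these libraries in view, as inhibitors and transcriptional outputs of the ERK pathway. All 10 passed the filter on low counts and entered the test together with the other genes, 12154 in all.

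Growth factor receptors on fibroblasts activate the small GTPase Ras, which switches on the kinases Raf, MEK and ERK in turn, and serum is the usual source of these growth factors in culture. ERK phosphorylates transcription factors, among them members of the ETS family, and so raises the transcripts of a set of immediate and delayed genes. Part of that set feeds back: Sprouty proteins restrain signalling between the receptor and Raf, and Spred proteins bring neurofibromin, which switches Ras off, to the membrane.

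The study compared mouse embryonic fibroblasts (MEFs) that stably carried a short hairpin RNA against Renilla luciferase (shRenilla), a control with no target in mouse cells, with MEFs carrying a hairpin against Bruce, also called Birc6 (shBruce). The labels give no clone, sex or age of the cells, and both groups share the retroviral hairpin vector. Each line was grown in full medium (FM) or starved for 2 h in medium without serum and without amino acids (Starv), so the absence of serum and the absence of amino acids cannot be told apart. Poly(A) RNA was sequenced in 3 libraries of each of the 4 groups. One hairpin was used for each line, so that the knockdown cannot be told apart from any other difference between the lines. Nothing in the labels says that the libraries of a group came from separate cultures, and p-values then measure the spread between these libraries, which may be technical.

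The 12 libraries held between 7717265 and 18510540 counts, the smallest being shBruce Starv replicate 1. Birc6, the target of the hairpin, was at 4682, 3273 and 5061 normalized counts in shRenilla FM and 1207, 1265 and 1390 in shBruce FM, and at 4759, 4712 and 2787 in shRenilla Starv and 1175, 703 and 1226 in shBruce Starv. Its log2 difference between the lines was -1.75 in FM (edgeR adjusted p = 0.0627) and -1.98 in Starv (edgeR adjusted p = 0.0186), without overlap. Of 12 fibroblast markers, 10 had at least 10 counts in every library, whereas Thy1 reached at most 3 counts and Fap at most 5. None of 6 epithelial and none of 4 endothelial markers had 10 counts in every library. Of the other markers, Cd14, Acta1 and Sox2 did so, while Cd3e and Zfp42 were at 0 in all libraries.

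Normalized counts are counts divided by the relative effective library size (trimmed mean of M values, TMM), and levels of different genes are compared only after division by transcript length. Per kb of transcript in shRenilla FM, Phlda1 stood highest at 1970 ± 238 normalized counts, followed by Ier3 at 755 ± 98.3. Spred1 followed at 371 ± 51.2 and Spry2 at 367 ± 6.77, which differed by less than the SD of Spred1. Etv4 was at 229 ± 25.4 per kb, Spred2 at 117 ± 22.1 and Etv5 at 72.6 ± 3.50. Spred3 at 44.3 ± 4.71 and Spry4 at 42.9 ± 1.90 did not differ beyond their spread, and Spry1 was lowest at 19.6 ± 2.54. In shRenilla Starv, Spred1 was highest at 355 ± 36.0 per kb and Etv4 came next at 191 ± 29.1. Spred2 at 120 ± 19.3 and Spry2 at 120 ± 7.04 followed and did not differ beyond their spread, nor did Phlda1 at 109 ± 23.5 and Ier3 at 109 ± 6.87. Below them were Etv5 at 75.8 ± 4.04, Spred3 at 32.8 ± 3.19, Spry4 at 14.0 ± 1.16 and Spry1 at 12.2 ± 1.75. In shBruce, Phlda1 at 1780 ± 472 and Ier3 at 951 ± 168 also led in FM, and in Starv they were at 196 ± 115 and 152 ± 64.8, beside 259 ± 45.7 for Spred1 and 257 ± 90.3 for Etv4. The 2 genes with the most RNA per length in full medium were thus below Spred1 and Etv4 on average after 2 h of starvation in both lines, with wide spread in shBruce.

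**Figure D1:**
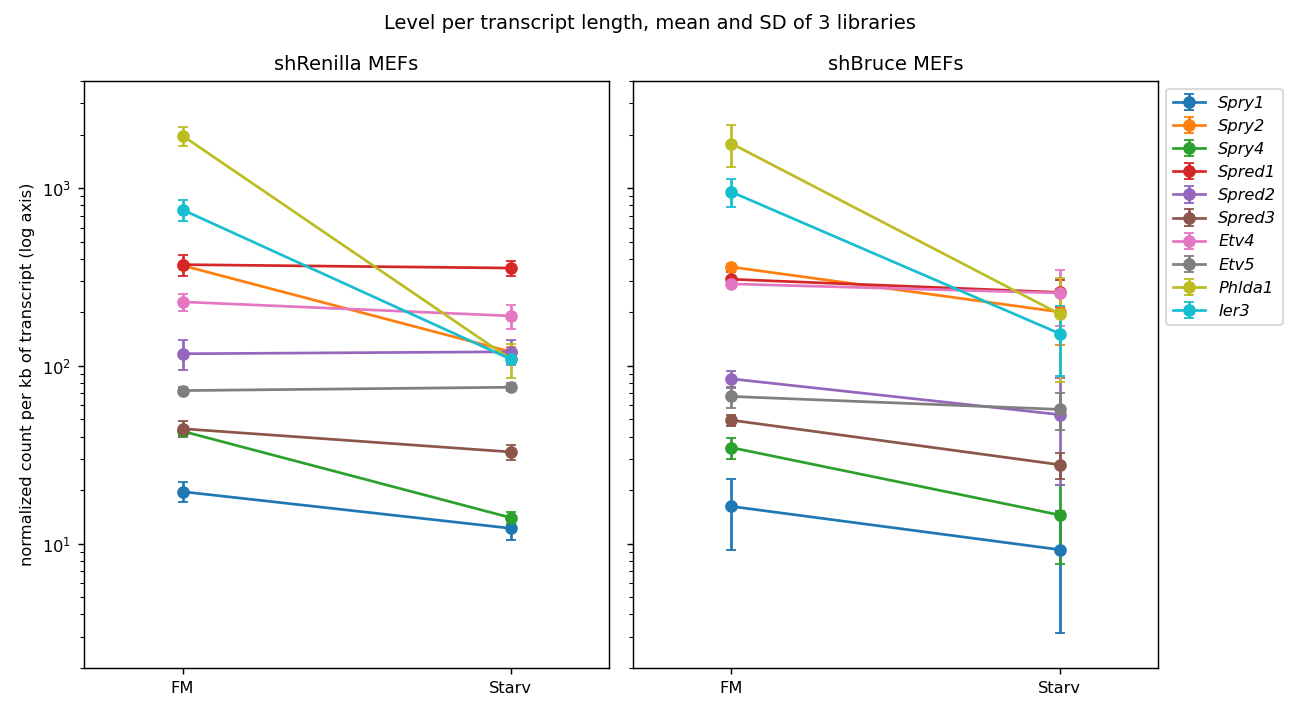
Normalized count per kb of transcript (log axis) of the 10 genes in FM and Starv, shRenilla MEFs on the left and shBruce MEFs on the right, as mean and SD of 3 libraries. The lines of Phlda1 and Ier3 start at the top in FM and cross those of Spred1 and Etv4 on the way to Starv in both panels.

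Since the genes were chosen with the starvation results known, the values of Starv against FM are a description of the members and carry no test here. Among the Sprouty genes, Spry2 and Spry4 had clearly less RNA in every Starv library than in any FM library of the same line. Spry2, an inhibitor of receptor tyrosine kinase signalling that also binds the ubiquitin ligase Cbl, lies at chr14:105891947-105896819 (GRCm38, minus strand) and has 2 exons. Its normalized counts in shRenilla were 779, 770 and 751 in FM and 252, 235 and 265 in Starv. The shBruce libraries had 789, 743 and 722 in FM and 559, 265 and 433 in Starv. The 6 FM libraries of both lines lay within 722 and 789, and shBruce Starv replicate 2 sat at the level of shRenilla Starv while the other 2 lay above it. The log2 fold change of Spry2 was -1.61 (standard error 0.20, 95% confidence interval -2.05 to -1.18) in shRenilla and -0.85 (0.20, -1.28 to -0.43) in shBruce, that is 3.06-fold and 1.81-fold lower in Starv.

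Spry4, a Sprouty protein that also acts on Ras and Raf, lies at chr18:38586247-38601415 on the minus strand. In shRenilla its normalized counts were 204, 195 and 213 in FM against 65.4, 72.7 and 61.9 in Starv. shBruce cells had 147, 190 and 160 in FM against 60.6, 41.6 and 105 in Starv. All Starv libraries were below all FM libraries, with the widest spread in shBruce Starv. The log2 fold change was -1.61 (standard error 0.25) in shRenilla and -1.23 (0.26) in shBruce. Spry1 (chr3:37639947-37644598, plus strand) was the least abundant member, with 6 to 75 counts as deposited. Its normalized counts in shRenilla were 61.2, 47.2 and 54.7 in FM and 39.1, 32.9 and 29.5 in Starv, without overlap. In shBruce they were 32.9, 34.5 and 67.4 in FM and 12.1, 20.3 and 44.6 in Starv, and replicate 3 was the highest of its group in both media. Its log2 differences of -0.68 (standard error 0.36) and -0.71 (0.39) had intervals that included 0.

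The Spred genes moved little, if at all, in shRenilla. Spred1, which brings neurofibromin to Ras, lies at chr2:117121374-117182279 on the plus strand. Its normalized counts in shRenilla were 2445, 1880 and 2375 in FM and 2157, 2342 and 1910 in Starv, fully overlapping, with a log2 fold change of -0.06 (95% confidence interval -0.39 to 0.26). In shBruce they were 1916, 1654 and 1977 in FM and 1332, 1482 and 1865 in Starv, with a log2 fold change of -0.24 (-0.57 to 0.08). Spred2 (chr11:19924375-20024026, plus strand) was at 549, 412 and 602 in shRenilla FM and 607, 553 and 439 in shRenilla Starv. In shBruce it was at 361, 424 and 342 in FM and 202, 116 and 392 in Starv, where replicate 3 lay among the FM values and the other 2 below them. The log2 fold changes of Spred2 were 0.03 (-0.64 to 0.70) and -0.65 (-1.35 to 0.04).

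Spred3, the family member without a working KIT-binding domain, lies at chr7:29158829-29170411 on the minus strand. In shRenilla it had 158, 195 and 186 normalized counts in FM against 148, 129 and 123 in Starv. Values in shBruce were 217, 187 and 198 in FM against 125, 90.7 and 123 in Starv. The groups did not overlap in either line, and the log2 fold change was -0.43 (-0.77 to -0.09) in shRenilla and -0.84 (-1.19 to -0.48) in shBruce. Spred3 shares 202 exon bases with Ggn on the opposite strand, and Ggn had 9 to 27 counts per library. The strand setting of the counting is not given in the sources used here, so reads in the shared stretch cannot be assigned.

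Etv4 and Etv5 encode ETS factors of the PEA3 group that ERK phosphorylates and whose transcripts are widely used as a readout of the pathway. In these cells neither was far from its FM level after starvation. Etv4 (chr11:101769742-101785371, minus strand) was at 517, 619 and 510 normalized counts in shRenilla FM and 402, 432 and 535 in shRenilla Starv. In shBruce it was at 693, 712 and 673 in FM and 856, 555 and 437 in Starv, so that replicate 1 lay above and the other 2 below every FM library. Its log2 fold changes were -0.27 (-0.71 to 0.17) and -0.18 (-0.62 to 0.26). Etv5 (chr16:22381309-22439719, minus strand) was at 275, 288 and 303 in shRenilla FM and 312, 283 and 309 in shRenilla Starv. In shBruce it was at 255, 240 and 308 in FM and 184, 208 and 287 in Starv. Its log2 fold changes were 0.06 (-0.29 to 0.41) and -0.23 (-0.59 to 0.13), and the groups overlapped in both lines. As a description, the shRenilla estimates of -0.27 for Etv4 and 0.06 for Etv5 stand beside -1.61 for Spry2 and Spry4.

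Phlda1 and Ier3 were the members furthest from their FM level. Phlda1, a pleckstrin homology-like domain protein whose transcript responds to mitogens, lies at chr10:111506286-111508645 on the plus strand. Its normalized counts in shRenilla were 3500, 4368 and 3652 in FM and 208, 169 and 260 in Starv. In shBruce they were 4425, 3371 and 2590 in FM and 640, 270 and 237 in Starv. Every Starv library was far below every FM library, and shBruce Starv replicate 1 stood above the other 5 starved libraries. The log2 fold change was -4.18 (standard error 0.35, -4.94 to -3.42) in shRenilla, 18.1-fold lower, and rank 1 from the most negative among the 12154 genes tested. In shBruce it was -3.21 (0.34, -3.94 to -2.48), 9.26-fold lower and rank 16.

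Ier3, an immediate early gene whose product is an ERK substrate and affects cell survival, lies at chr17:35821684-35822923 on the plus strand. Its normalized counts in shRenilla were 805, 981 and 775 in FM and 121, 118 and 132 in Starv. In shBruce they were 1208, 1160 and 858 in FM and 248, 164 and 102 in Starv. The FM and Starv ranges lay far apart, and the lowest and the highest starved library were both of shBruce. The log2 fold change was -2.79 (standard error 0.25, rank 19) in shRenilla and -2.69 (0.25, rank 27) in shBruce, 6.91-fold and 6.43-fold lower. Annotated RNAs on the opposite strand share 727 exon bases with Phlda1 and 710 with Spry1, and neither of them is a row of the count table.

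**Figure D2:**
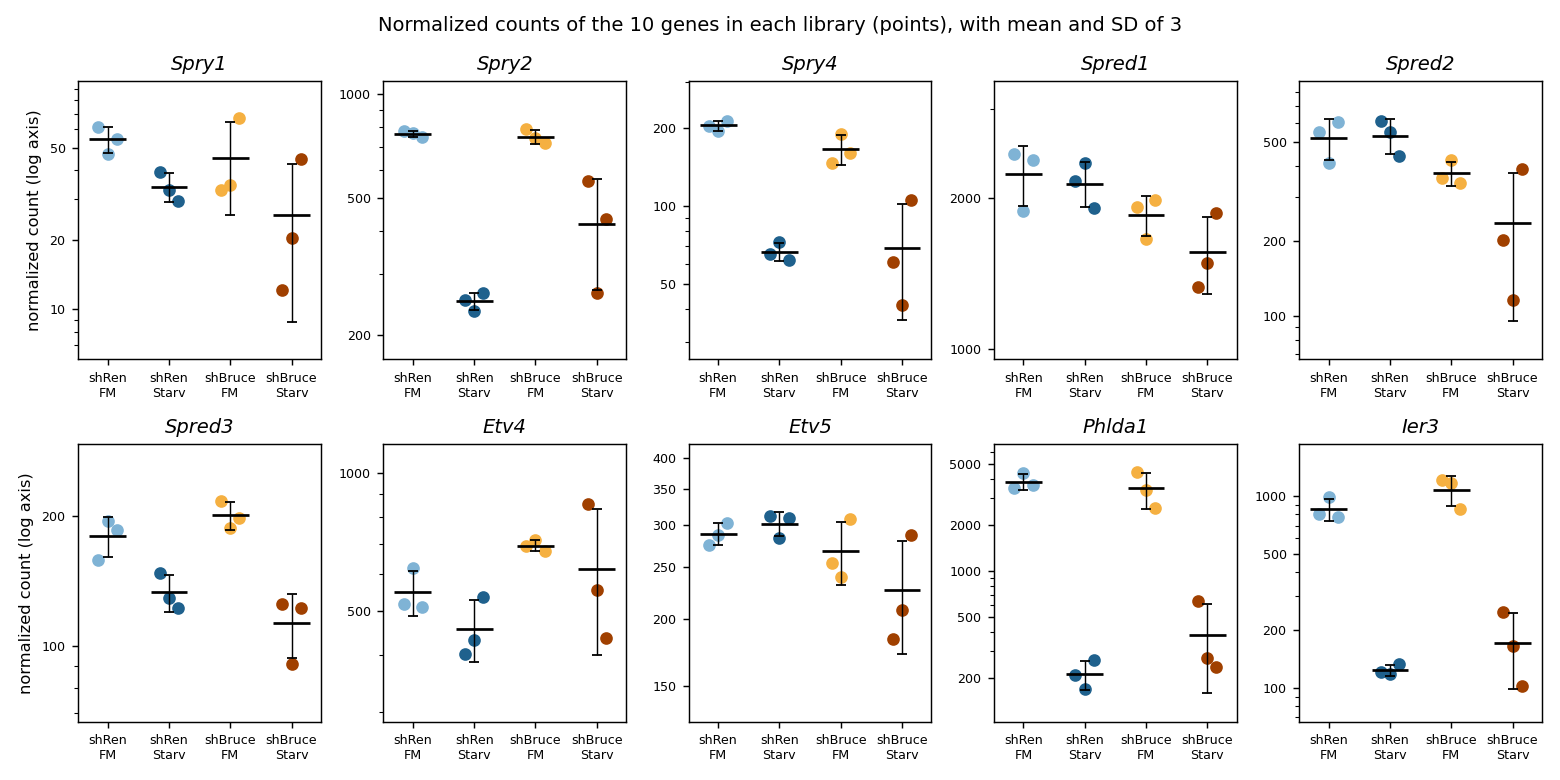
Normalized count (log axis, own scale in each panel) of each of the 10 genes in every library, with mean and SD of 3. Phlda1, Ier3, Spry2 and Spry4 show all Starv points below all FM points of the same line, Spred1, Spred2, Etv4 and Etv5 show overlapping groups, and the shBruce Starv points are the most scattered.

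In edgeR's quasi-likelihood test, with Benjamini-Hochberg adjustment over all genes and a level of 0.05, 4 of the 10 members were lower in shRenilla Starv than in FM, beside 7.27% of all genes tested. These were Spry2, Spry4, Phlda1 and Ier3. The corresponding count in shBruce was 5 of 10, with Spred3 added, beside 10.6% of all genes. No member was higher in Starv in either line, beside 9.69% of all genes in shRenilla and 12.4% in shBruce. The same 4 members were lower in both lines, beside 5.51% of all genes. The members' groups did not overlap, with Starv lower, for 6 members in shRenilla (26.5% of all genes) and for 5 in shBruce (14.8%). The median log2 fold change of the members was -0.55 in shRenilla and -0.77 in shBruce, against -0.01 and 0.02 over all genes. These counts and medians come from a contrast whose results were known at the choice and nothing is read from them. When only the 6 shBruce libraries were fitted, Spry2 and Spred3 no longer passed the level and the shBruce count was 3. Without shBruce Starv replicate 3 that count was 8.

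**Figure D3:**
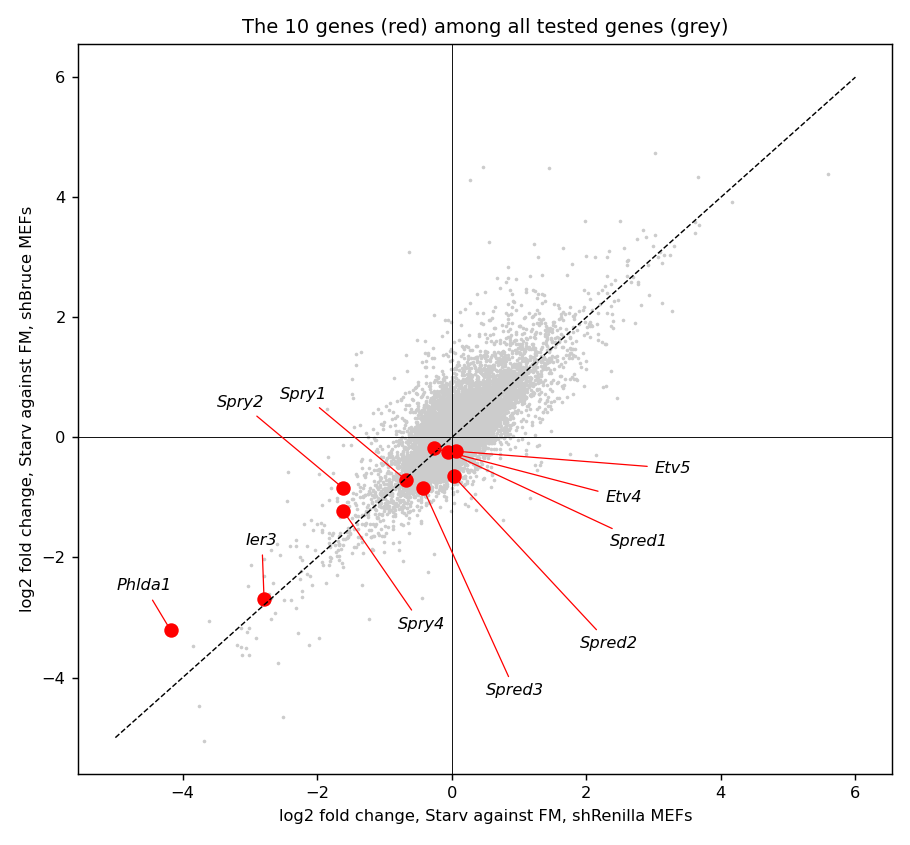
log2 fold change of Starv against FM in shRenilla MEFs (horizontal) and shBruce MEFs (vertical) for all genes tested (grey) and the 10 genes (red), with the dashed line marking equal change. Phlda1 is the leftmost of all points at -4.18, Ier3 sits close to the line at -2.79 and -2.69, and Spred1, Spred2, Etv4 and Etv5 lie near 0 on the horizontal axis.

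Promoter sequence was at hand in the RefSeq-derived table (GRCm38.p6, 250 bases before to 50 after a start site) for 7 of the 10 members. Etv4, Phlda1 and Spry4 had no entry. Both strands were searched for letters bound by transcription factors, not all of them of the ERK pathway. These were the ETS site CCGGAAGT, the sites TGAATGAA and TGAATGGA of Capicua (CIC, a repressor that ERK signalling inactivates), the AP-1 site TGANTCA, the cyclic AMP element TGACGTCA, the CArG box of serum response factor, the FOXO site TGTTTAC and the E-box CACGTG. Ier3 and Spry2, which were lower in Starv in both lines, are shown first and held none of these letters. Spred3 follows with a CIC site on its own strand starting at -10 from the start site. That start is internal, since the window ends at 29168897 and the gene, on the minus strand, extends to 29170411. Last comes an internal Etv5 start, where TGAATGGG stands 3 times. TGAATGGG resembles the CIC sites and was added to the search after this sequence had been seen, so its matches here test nothing. Capitals mark these matches.
Ier3, chr17:35821463-35821762, plus strand: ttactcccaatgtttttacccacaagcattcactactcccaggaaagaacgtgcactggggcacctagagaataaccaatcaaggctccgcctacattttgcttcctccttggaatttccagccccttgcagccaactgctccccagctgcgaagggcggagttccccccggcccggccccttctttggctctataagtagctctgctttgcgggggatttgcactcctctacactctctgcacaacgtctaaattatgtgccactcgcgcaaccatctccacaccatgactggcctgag
Spry2, chr14:105896770-105897069, minus strand: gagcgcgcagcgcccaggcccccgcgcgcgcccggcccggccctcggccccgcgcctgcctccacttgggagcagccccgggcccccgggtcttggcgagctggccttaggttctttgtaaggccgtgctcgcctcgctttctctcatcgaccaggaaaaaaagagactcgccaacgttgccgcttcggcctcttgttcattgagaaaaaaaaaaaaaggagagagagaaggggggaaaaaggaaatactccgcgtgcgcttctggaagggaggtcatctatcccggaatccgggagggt
Spred3, chr7:29168598-29168897, minus strand: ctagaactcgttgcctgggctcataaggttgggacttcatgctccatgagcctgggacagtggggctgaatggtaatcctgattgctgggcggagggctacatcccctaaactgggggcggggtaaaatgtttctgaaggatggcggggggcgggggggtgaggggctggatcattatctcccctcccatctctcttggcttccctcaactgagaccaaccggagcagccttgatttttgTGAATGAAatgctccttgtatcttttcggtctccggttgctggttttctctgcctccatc
Etv5, chr16:22438319-22438618, minus strand: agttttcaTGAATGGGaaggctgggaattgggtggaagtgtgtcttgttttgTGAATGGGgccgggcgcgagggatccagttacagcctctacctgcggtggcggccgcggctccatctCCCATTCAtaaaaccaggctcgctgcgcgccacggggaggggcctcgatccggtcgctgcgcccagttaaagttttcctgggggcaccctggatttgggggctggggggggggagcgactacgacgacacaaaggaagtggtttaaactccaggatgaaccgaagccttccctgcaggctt

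Over the 32851 promoters in the table, 2.47% held TGAATGAA or TGAATGGA and 1.08% held TGAATGGG. Counted from the start site, the Etv5 matches began at -242 and -198 on the strand of the gene and at -131 on the other strand. The upstream Etv5 start held the FOXO letters once, as did 3.65% of promoters. The ETS letters, found in 3.89% of promoters, the AP-1 letters in 7.81%, the cyclic AMP element in 1.79%, the CArG box in 1.63% and the E-box in 7.15% were in none of the members' windows. These matches describe letters in a window and draw on no binding data.

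In the 3′ untranslated region of the mRNA, the letters ATTTA mark short AU-rich elements that are common in unstable transcripts. Ier3 had 5 of them in 613 bases, or 8.16 per kb, a density reached by 1.8% of 18875 genes. Phlda1 had 3 in 612 bases, or 4.90 per kb, reached by 8.0% of genes. The other members ranged from 0 in Etv4 to 2.77 per kb in Spred1, around a median of 1.37 per kb over all genes. The 2 members with the densest ATTTA were thus those with the largest starvation differences, and whether the letters bear on them was not tested.

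In full medium the question was whether these genes differ between shBruce and shRenilla cells. None of the 10 members passed the level in edgeR's test, and none had an unadjusted p under 0.05 or passed with limma-voom or DESeq2. Over all genes 0% passed in edgeR's test, while 14.4% had an unadjusted p under 0.05. Birc6, the target of the hairpin, did not pass in it either, at -1.75 (edgeR adjusted p = 0.0627). DESeq2 called 76 genes and edgeR with only the FM groups 572, with no member among them. Etv4 was higher in every shBruce FM library (673 to 712 normalized counts) than in any shRenilla FM library (510 to 619), with a log2 difference of 0.34 (standard error 0.20, 95% confidence interval -0.10 to 0.78, edgeR adjusted p = 0.426). Spry4 was lower in every shBruce FM library, at 147 to 190 against 195 to 213, with a difference of -0.31 (0.24, -0.82 to 0.21, edgeR adjusted p = 0.518). Groups without overlap were found for 16.4% of all genes with shBruce higher and for 17.0% with shBruce lower. Spry2 was closest to equal, at a log2 difference of -0.03 with an interval from -0.45 to 0.39. The widest intervals belonged to Spry1 (-1.03 to 0.49) and Spred2 (-1.15 to 0.20), and differences within those bounds are not excluded.

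After starvation, 3 of the 10 members passed the level between the lines in the fit of all 12 libraries, 1 higher and 2 lower in shBruce. Over all genes 12.8% were higher and 11.2% lower, so counts of 1 and 2 among 10 lie near those shares. Nothing about the members as a set is read from these counts. Earlier results of these libraries were in view when the members were picked. The values between the lines, in either medium, and those of the interaction therefore also describe the members. Spry2 was higher in shBruce Starv, at 419 ± 148 normalized counts against 251 ± 14.7 in shRenilla Starv (SD, n = 3). Its log2 difference was 0.73 (standard error 0.20, interval 0.29 to 1.16, edgeR adjusted p = 0.0283). The groups touched, since 1 shBruce library lay at the shRenilla level, and the exact two-sided permutation test gave p = 0.2, where 0.1 is the smallest p that 3 against 3 libraries allow. Spred2 was lower, at 237 ± 141 against 533 ± 86.0, with a log2 difference of -1.16 (0.32, -1.85 to -0.46, edgeR adjusted p = 0.0285, exact permutation p = 0.1). Spred1 was also lower, at 1560 ± 275 against 2136 ± 217, with a log2 difference of -0.45 (0.15, -0.78 to -0.13, edgeR adjusted p = 0.0461, exact permutation p = 0.1). For Spred1 and Spred2 the groups did not overlap, as for 18.5% of all genes with shBruce lower.

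None of the 3 calls held in every fit. With the 6 Starv libraries alone, edgeR gave adjusted p = 0.120 for Spry2, 0.118 for Spred2 and 0.131 for Spred1, at nearly the same log2 differences, and 0 of all 12154 genes passed. Spry2 passed under 16 of 22 alternatives, Spred2 under 15 and Spred1 under 8, and of the 12 fits that left out 1 library they passed in 9, 8 and 3. All 3 lost the call when shRenilla Starv replicate 1, shRenilla Starv replicate 2 or shBruce Starv replicate 1 was left out, and without shBruce Starv replicate 2 only Spry2 passed, at 0.97. Spred1 alone also lost it without shRenilla FM replicate 1 or 3 or without any 1 of the shBruce FM libraries, at -0.45 each time. Without shBruce Starv replicate 3, 7 members passed, Spry2, Etv4, Phlda1 and Ier3 higher and Spred1, Spred2 and Etv5 lower in shBruce. The starved libraries also differed in how levels depended on transcript length. In shRenilla Starv replicates 1 and 2, the tenth of genes with the longest transcripts stood 0.38 and 0.37 (log2) above the mean of all libraries, and in shBruce Starv replicates 1 and 2 they stood at -0.13 and -0.48. Replicate 3 was at 0.03 in shRenilla Starv and 0.05 in shBruce Starv. With length and GC trends removed from each library, the difference of Spred1, whose transcript is the longest of the members at 6016 bases, was 0.05, while Spry2 was at 0.71 and Spred2 at -1.0, and none of the 3 passed.

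**Figure D4:**
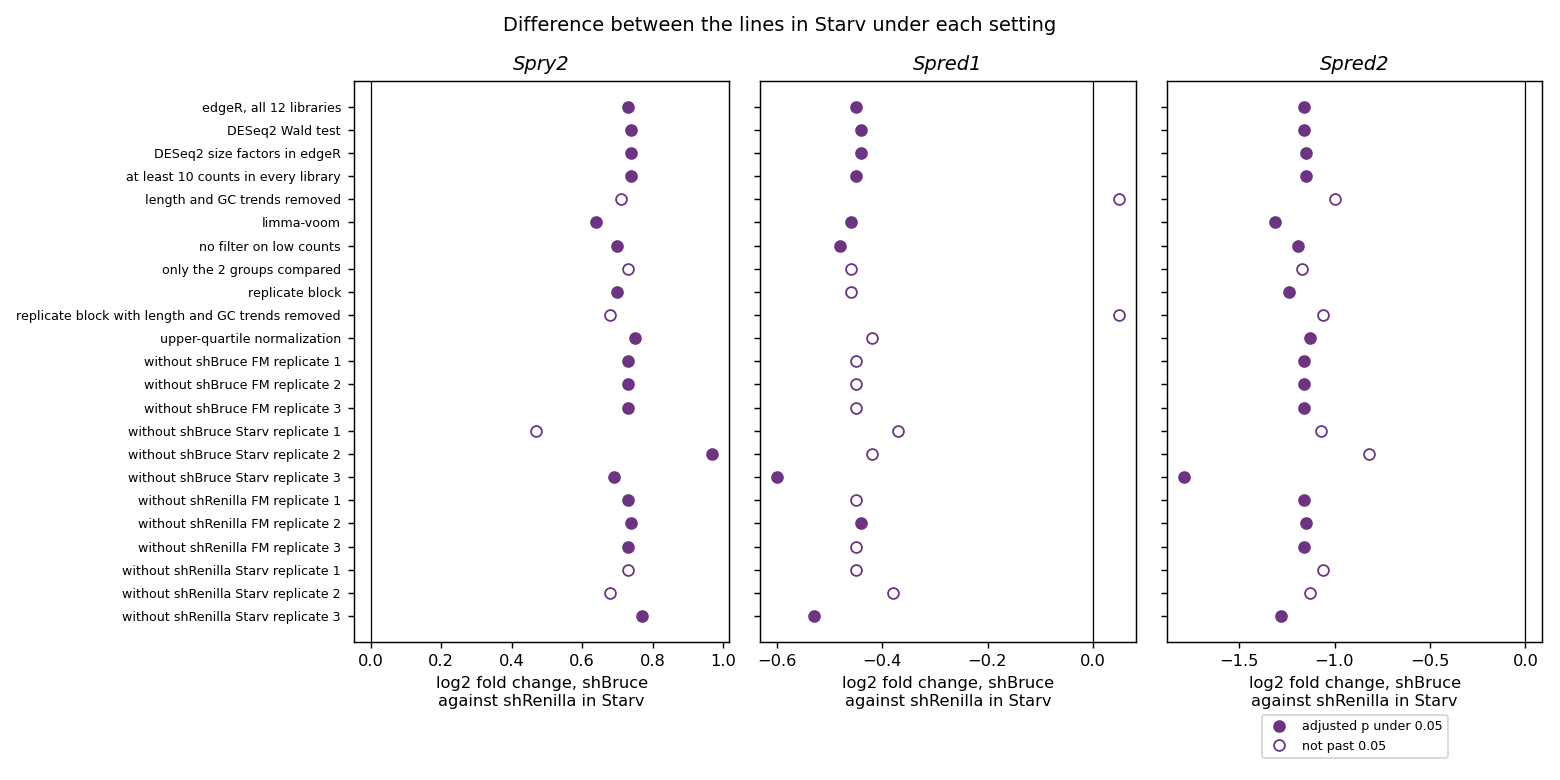
log2 difference between shBruce and shRenilla in Starv for Spry2, Spred1 and Spred2 under the fit of all 12 libraries and 22 alternatives, filled where edgeR's, limma's or DESeq2's adjusted p was under 0.05. Spry2 and Spred2 keep their sides of 0 throughout, whereas Spred1 reaches 0.05 with the trends removed, and filled points are missing in several settings for each gene.

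The remaining 7 members did not pass the level between the lines in Starv. Phlda1 had a log2 difference of 0.82 (interval 0.11 to 1.53, edgeR adjusted p = 0.0800), with 382 ± 224 normalized counts in shBruce against 212 ± 45.7. It passed with DESeq2's Wald test at 0.86 (adjusted p = 0.0352), but under only 2 of 22 alternatives in all. Leaving out each library gave 0.24 to 1.07 for Phlda1. Etv5 had -0.40 (-0.76 to -0.04, edgeR adjusted p = 0.0882) and Etv4 0.42 (-0.02 to 0.87, edgeR adjusted p = 0.138). Ier3 was at 0.44, Spred3 at -0.25, Spry1 at -0.30 and Spry4 at 0.07. Over the 10 members the median difference was -0.09, against 0.00 over all genes.

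**Figure D5:**
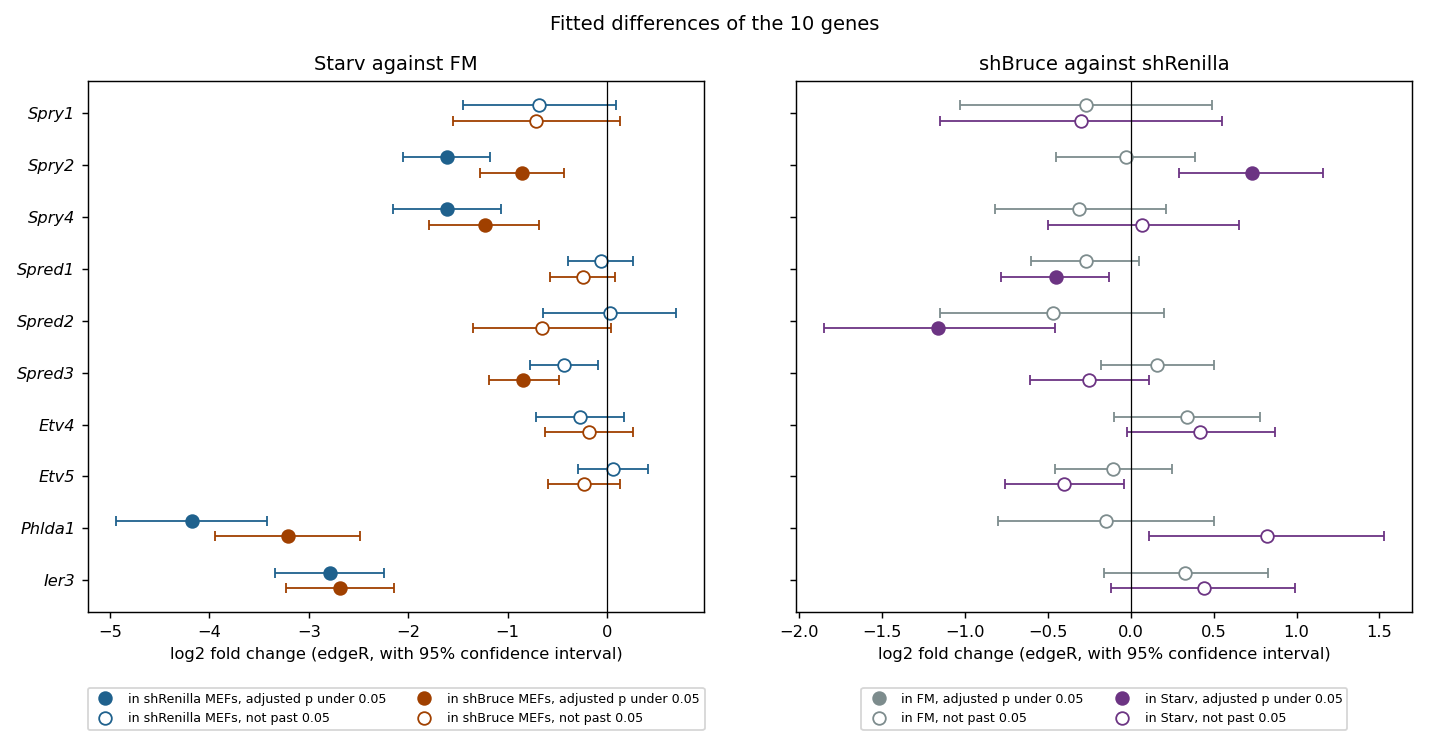
Fitted log2 fold changes with 95% confidence intervals for the 10 genes, Starv against FM in each line on the left and shBruce against shRenilla in each medium on the right. Filled points passed the level of 0.05 after adjustment over all genes, and both panels are given as a description. The interval of Spred1, Spred2, Etv4 and Etv5 includes 0 in both lines on the left, and every FM interval on the right includes 0.

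Whether starvation acted differently in the lines was asked by the interaction of line and medium, the shBruce change minus the shRenilla change. No member passed the level with edgeR, limma-voom or DESeq2, 0% of all genes did so with edgeR, and 3.90% of all genes had an unadjusted p under 0.05 in edgeR's test. For Spry2 the interaction was 0.76 (standard error 0.28, interval 0.15 to 1.36, edgeR adjusted p = 0.806) and for Phlda1 0.97 (0.45, 0.01 to 1.93, edgeR adjusted p = 0.806). Both were smaller starvation differences in shBruce, and both had an unadjusted p under 0.05 in that fit. Leaving out each library gave 0.48 to 1.00 for Spry2 and 0.38 to 1.22 for Phlda1. Both were lowest without shBruce Starv replicate 1, where edgeR's unadjusted p was 0.0512 for Spry2 and 0.215 for Phlda1. Spred2 had -0.68 (-1.65 to 0.28), and Ier3, at 0.10, had an interval from -0.64 to 0.85.

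By the ratio of the highest to the lowest library, shBruce Starv was the group with the widest spread for all 10 members. The highest of the 3 shBruce Starv values was 3.68 times the lowest for Spry1, 3.37 times for Spred2, 2.70 times for Phlda1, 2.52 times for Spry4 and 2.43 times for Ier3. It was 2.11 times for Spry2, 1.96 times for Etv4, 1.56 times for Etv5, 1.40 times for Spred1 and 1.38 times for Spred3. The median over all genes was 1.54 in shBruce Starv and between 1.17 and 1.24 in the other groups. Replicate 1 was the highest of the group for Spry2, Spred3, Etv4, Phlda1 and Ier3, and replicate 3 was the highest for Spry1, Spry4, Spred1, Spred2 and Etv5.

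The wider pathway was described with 5 lists, written from general knowledge with earlier results of these libraries known, so that their counts are descriptions. Of 30 genes from the receptor to ERK, all tested, 2 were higher and 0 lower in shRenilla Starv than in FM, beside 9.69% of all genes higher and 7.27% lower, so that neither count stands above that share. These were the adaptor Gab1 at 0.87 (standard error 0.13, edgeR adjusted p = 0.00053) and the insulin receptor gene Insr at 0.78 (edgeR adjusted p = 0.0112). In shBruce, beside 12.4% of all genes higher and 10.6% lower, 1 was higher, Gab1 at 0.83, and 3 were lower, Fgfr1 at -0.49, the ERK-activated kinase gene Rps6ka1 at -0.48 and the phosphatase gene Ptpn11 at -0.42. The median of the list was -0.04 in shRenilla and -0.13 in shBruce, against -0.01 and 0.02 over all genes. Rps6ka1 passed under 9 of 22 alternatives.

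Of 19 tested genes among 20 other ERK-responsive ones, 15 were lower in Starv in shRenilla and 15 in shBruce, and none was higher, beside 7.27% and 10.6% of all genes lower. As with the members, nothing is read from these counts, because earlier results were known when the list was written. The cytokine gene Lif had a log2 fold change of -3.12 in shRenilla and -3.63 in shBruce (edgeR adjusted p = 6.1e-07 and 1.7e-07). Dusp5, an ERK phosphatase, was at -2.82 and -2.77, and Ereg, which encodes the EGF receptor ligand epiregulin, was at -2.66 and -2.43 (edgeR adjusted p = 0.00044 and 0.00074). The list's median was -1.10 in shRenilla and -1.12 in shBruce. The genes that did not pass were Dusp4, Egr1 and Mcl1 in both lines, Myc in shRenilla and Fos in shBruce.

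A list of 20 other regulators of the pathway held mostly, but not only, inhibitors. Of its 19 tested genes, 2 were higher and 4 lower in shRenilla Starv, beside 9.69% of all genes higher and 7.27% lower. In shBruce Starv 1 was higher and 5 lower, beside 12.4% higher and 10.6% lower. Nothing is read from these counts either, because earlier results were known when the list was written. Errfi1, an inhibitor of the EGF receptor, fell, at -2.23 in shRenilla and -2.55 in shBruce, as did the adaptor gene Dok1, at -1.44 and -1.09, and Lrig1, which promotes receptor turnover, at -0.76 and -1.06. The ubiquitin ligase gene Siah2 was higher, at 0.74 and 0.56. Among 13 tested of 16 other ETS factors, Etv1, the third gene of the PEA3 group, was higher in Starv, at 1.05 in shRenilla (edgeR adjusted p = 0.0145) and 1.33 in shBruce (edgeR adjusted p = 0.00566). Its normalized counts were low, 18.7 ± 2.35 in FM and 38.9 ± 8.13 in Starv in shRenilla (SD, n = 3). Elf1 was also higher in both lines, at 0.63 and 0.92, while Ets1 was lower at -0.72 and -1.05 and Ets2 at -0.46 and -0.50. The PEA3 group thus held 1 gene that was higher in Starv and 2, Etv4 and Etv5, that did not pass. Of 4 tested relatives of Phlda1 and Ier3 among 5, Ier5l was lower in both lines, at -1.71 and -1.01, and Phlda3 in shRenilla, at -0.64.

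In FM no gene of the 5 lists passed between the lines. In Starv, where 12.8% of all genes were higher in shBruce and 11.2% lower, 2 of the 30 receptor-to-ERK genes were higher in shBruce, Hras at 0.99 and Map2k2 at 0.86, and 12 were lower, with Frs2 at -0.93, Egfr at -0.91 and Sos1 at -0.84 furthest. Among the 19 other regulators Pebp1 at 1.07, Erf at 0.79 and Dok1 at 0.47 were higher, and 4 were lower, led by Cbl at -1.61, Il17rd at -1.08 and Nf1 at -1.0. Of the 19 ERK-responsive genes, Areg, which encodes amphiregulin, was higher at 1.20 (edgeR adjusted p = 0.0225) and Epha2 lower at -0.60. Of the 13 ETS factors, Elk4 at -1.03, Gabpa at -0.99 and Ets1 at -0.59 were lower. Ier5l at 1.04, Ier2 at 0.72 and Phlda3 at 0.55 were higher. These values depended on the fit: over the 22 alternatives Phlda3 reached -0.09 and passed in 5, Dok1 reached 0.03 and passed in 7, and Elk4 reached -0.67 and passed in 8. In the alternative nearest to 0 for each, Ier2 was at 0.16, Sos1 and Ets1 at -0.25, Egfr at -0.38 and Nf1 at -0.42. Over all genes, 678 passed between the lines in Starv with length and GC trends removed, in place of 2907. As for the members, none of these passed when only the 6 Starv libraries were fitted, and no gene of the lists passed in the interaction.

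The genes whose log2 levels ran closest to each member over the 12 libraries were ranked by Pearson's r, as a measure of likeness. The libraries fall into starved and fed sets and share depth and length trends, and every such r holds this in part. For Phlda1 these were Hbegf (0.987), Socs1 (0.987) and Jun (0.984), and for Ier3 they were Inhba, Srf and Zyx (0.990 each). For Spry2 they were Mex3a (0.972), Socs1 (0.971) and Surf6 (0.969), and for Spry4 they were Polg (0.977), Clcf1 (0.973) and Ereg (0.972). The Spred genes had other neighbours, Prkaa1, Sec24a and Uba6 for Spred1 (0.980 to 0.988), Slc36a4, Rad54l2 and Pcdhgc3 for Spred2 (0.982 to 0.992) and Pax8, Zdhhc9 and Extl3 for Spred3 (0.952 to 0.963). For Etv4 they were Syngr2, Pop7 and Aprt (0.972 to 0.975), for Etv5 Gpatch2l, Cdyl and Usp28 (0.945 to 0.946) and for Spry1 Tnfrsf11b, Il1r1 and Ddhd1 (0.970 to 0.974). Socs1 stood near both Phlda1 and Spry2, and no other gene was named for more than 1 member.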

How the data were processed

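RNA from 12 libraries (2 lines, 2 media, 3 each) was measured as whole-number counts per gene, which the authors made from poly(A) single-end reads with STAR 2.4.0d on mm10 and HTSeq 0.5.4p3 after removing ribosomal reads and deposited without normalization. Gene symbols were those of the table, of which 27 had become dates and were left as they are. Totals ran from 7717265 to 18510540, so that the least abundant member rested on 6 to 75 counts. The 12154 genes that filterByExpr kept went into edgeR 4.0.16 under R 4.3.3 (TMM, a mean for each of 4 groups, quasi-likelihood test, two-sided, Benjamini-Hochberg, level 0.05). Single members were also compared between lines by exact permutation of normalized counts. The script was tested on simulated counts. Transcript lengths, coordinates and 3′ ends came from the GRCm38 annotation and promoters from RefSeq. Alternatives were limma-voom (limma 3.58.1), DESeq2 1.42.0, other scalings and filters, only the groups compared, a replicate block, removal of length and GC trends and leaving out each library.

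The members and lists were chosen with earlier results of these data known. All members and Birc6 were named, together with the 3 most changed genes each way per list and comparison that passed the level, and the 3 genes most like each member. Markers, and genes completing a short count, were named besides.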

Additional observations from a re-analysis of the deposited data

How the results depend on the processing

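The results of Starv against FM were known at the choice, so passes there describe refits of the same libraries and add no support. Phlda1, Ier3 and Spry4 passed the level for Starv against FM in both lines under all 22 alternatives, Spry2 in 22 for shRenilla and 21 for shBruce. Spred3 passed in 21 for shBruce and 4 for shRenilla. In FM and in the interaction no member passed between the lines under any alternative run. The count of members past the level in shRenilla Starv against FM was 4, but 6 with only the groups compared (Spry1 and Spred3 added) or with the trends removed (Spred1 and Spred3 added), and 4 to 5 when 1 library was left out. The counts in shBruce Starv against FM and in Starv between the lines moved further. With only the groups compared it was 3 in shBruce Starv against FM and 0 between the lines in Starv, and with length and GC trends removed, alone or with the replicate block, the latter was 0. The cause was not tested. Leaving out each library gave 5 to 8 members in shBruce Starv against FM, with 8 without shBruce Starv replicate 3, and 0 to 7 between the lines in Starv. Over all genes, those past the level between the lines in Starv numbered 2907, but 678 with the trends removed, 0 with only the groups compared, 15 to 5735 when 1 shBruce Starv library was left out, and 0 without shRenilla Starv replicate 1 or 2. For shRenilla Starv against FM the totals were 2061 and, with only the groups compared, 5029, and for shBruce they were 2790 and 943, or 4008 with the trends removed. In FM, 0 genes passed, against 572 with only the groups compared and 76 with DESeq2. Upper-quartile scaling put the median of all genes in shBruce Starv against FM at 0.11 in place of 0.02, with 1991 genes higher and 933 lower in place of 1506 and 1284. In shRenilla it gave 1588 and 641 in place of 1178 and 883.

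Same-numbered libraries did not deviate together (r from -0.46 to 0.35 over 12154 genes), so the numbers were not taken to pair the samples. With the replicate block 4 members passed in shRenilla Starv against FM, 5 in shBruce, 0 in FM and 2 in Starv between the lines, where Spred1 at -0.46 (edgeR adjusted p = 0.0612) no longer passed, and genes past the level there fell from 2907 to 1932.

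Values near 0 changed sign. With trends removed, alone and with the block, Spred2 in shRenilla Starv against FM was at -0.04 and -0.02, Spred1 in FM at 0.08 and 0.08, Spred1 in Starv between the lines at 0.05 and 0.05, Ier3 there at -0.09 and -0.10, the Etv4 interaction at -0.05 and -0.06 and that of Ier3 at -0.19 and -0.18. Upper-quartile scaling put Spred1 in shRenilla Starv against FM at 0.02. With limma-voom Spry4 in Starv between the lines was at -0.01 and the Ier3 interaction at -0.02. Leaving out each library gave Spred1 from -0.18 to 0.01 and Spred2 from -0.12 to 0.15 in shRenilla Starv against FM, Etv4 from -0.50 to 0.01 in shBruce Starv against FM, Phlda1 from -0.37 to 0.02 in FM and Spry4 from -0.43 to 0.36 in Starv between the lines. The interactions ranged from -0.72 to 0.39 for Spry1, from -0.13 to 0.66 for Spry4, from -0.25 to 0.28 for Etv4 and from -0.26 to 0.38 for Ier3. Spry1 had no value with at least 10 counts in every library, and the interaction has no fit of 2 groups only. Spry1, with 6 counts in its smallest library, is the member whose precision the depth limits most.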
